A study of Mus musculus with 74 samples.

Results

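The 40 genes described here copy the chromosomes or divide them. They were taken by name from the gene name column of both deposited expression tables: 21 act in DNA replication or at entry into S phase and 19 act in mitosis. All 40 were found once in each table, among 21241 genes in the NSC-medium table and 20558 genes in the parallel-media table, and all 40 passed the filter on low values. The RNA-seq libraries follow mouse embryonic fibroblasts (MEFs) driven towards neural stem cells or pluripotency by transcription factors delivered on lentiviruses that doxycycline (Dox) switches on through M2rtTA.

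In the first experiment Sox2-GFP MEFs received K_FNV (Klf4 and eSox17FNV, an engineered Sox17), BKM_FNV (Brn4, Klf4, c-Myc and eSox17FNV), BKM_Sox17 (the same with Sox17) or BKM_Sox2 (the same with Sox2). They were kept in NSC medium with 1 µg/mL Dox through day 18 and without Dox afterwards, and were sampled on days 4, 8, 12, 18, 24 and 30. Induced lines made with Klf4 and eSox17FNV (iNSC_KF) or with Brn4, Klf4, c-Myc and eSox17FNV (iNSC_BKMF), and primary neural stem cells (NSC), were grown in NSC medium to passage 15. They and the untransduced passage 1 MEFs, which were kept in MEF medium, carry Sox2-GFP and had no Dox. In the second experiment MEFs that carry Nanog-CreER, Rosa26-tdTomato and Sox2-GFP received Klf4, c-Myc and eSox17FNV. They spent 8 days in N2B27 medium with Dox and were then split into LIF/2i medium, a pluripotency medium, or NSC medium, with Dox through day 16; the day 12, 16, 20 and 24 libraries come from after the split. The MEF libraries in that table are the Sox2-GFP MEFs of the first experiment, so they differ from the second experiment's cells in genotype too.

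Groups have 2 libraries, except that BKM_Sox17 and BKM_Sox2 at day 30 have 1. The labels do not say whether the libraries of a group came from separate cultures, so p-values measure the spread between these libraries, which may be technical. The deposited values are tag counts that the authors normalized and rounded; their column sums lie between 17698392 and 17710071 in the NSC-medium table and between 17848683 and 17866021 in the parallel table, so the sequencing depth is unknown. Libraries of a group correlated at r = 0.937 to 0.961, except for BKM_Sox2 day 24 replicate 1, which correlated with its partner at 0.0578. In that library 24.5% of genes and 13 of the 40 genes are listed at 0, against 9.56 to 14.8% of genes in the other libraries of the table. It was left out, which leaves BKM_Sox2 day 24 with 1 library. A gene was called higher or lower when limma gave an adjusted p below 0.05 over all genes tested and the log2(value + 2) means differed by at least 1. Some results also count genes at an unadjusted p under 0.05 in limma. The shares of all genes beside them are of genes called, which is a stricter limit. Those counts therefore cannot show whether there is an excess over all genes, since no share of all genes at the same limit is given. Keeping the doubtful library in the fit lowers most counts of called genes, and such counts are given beside the results.

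Labelled cell types were checked by the summed values of marker lists. The 10 fibroblast markers summed to 268142 and 302374 in MEFs, against 12910 to 13749 in NSC. The 9 neural stem cell markers summed to 119093 to 119215 in NSC, 115587 to 116797 in iNSC_BKMF, 73346 to 80124 in iNSC_KF and 1757 to 1881 in MEFs. A single gene can make up most of such a sum. In NSC Fbln2 averaged 13007.5 among the fibroblast markers and Fabp7 78139 among the neural stem cell markers. In LIF/2i on day 24 Dppa5a averaged 49058 among the pluripotent markers. MEF libraries also held the macrophage markers, with all 10 detected and a sum of 3614 to 3906, against 22 to 1455 in the other groups of the NSC-medium table.

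Cells copy their genome once per cycle. Cdc6 and Cdt1 load the Mcm2 to Mcm7 helicase on origins before S phase, and Cdc45 with the GINS subunits Gins1 and Gins2 turns it into an active helicase. Pcna is the sliding clamp that the Rfc subunits load, Pola1 and Pole are polymerase subunits, and Rrm1, Rrm2 and Tyms supply nucleotides. Cyclin E, from Ccne1 and Ccne2, drives entry into S phase, and cyclins A and B with Cdk1 drive entry into mitosis. The checkpoint proteins Bub1 and Bub1b hold chromosome separation until attachment is complete, Cdc20 activates it, and the kinases Aurka, Aurkb and Plk1 act through mitosis. Many of these genes are transcribed in S phase under E2F factors, or later in the cycle through a cell-cycle homology region (CHR) that the DREAM and MuvB complexes bind, often beside CCAAT boxes of the factor NF-Y.

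The promoters of 6 genes show these letters. Mcm5, Rrm2, Ccnb1, Plk1 and Top2a are shown because their values recur below, and Mcm6 as a second helicase gene with E2F-type letters. The windows run from 250 bases before to 50 bases after the start site, from RefSeq on build GRCm38.p6, and the 250 upstream bases are printed 5′ to 3′ in the direction of transcription. Capitals mark matches, on either strand, to the E2F-type letters TTTCCCGC, TTTGGCGC, TTCCCGCC and TTGGCGCC, to the CHR letters TTTGAA and TTTAAA, and to CCAAT. The replication genes are Mcm5 (chr8:75109259-75109508, plus strand), Mcm6 (chr1:128359706-128359955, minus strand) and Rrm2 (chr12:24708004-24708253, plus strand), and the mitosis genes are Ccnb1 (chr13:100786487-100786736, minus strand), Plk1 (chr7:122159185-122159434, plus strand) and Top2a (chr11:99024190-99024439, minus strand).
Mcm5: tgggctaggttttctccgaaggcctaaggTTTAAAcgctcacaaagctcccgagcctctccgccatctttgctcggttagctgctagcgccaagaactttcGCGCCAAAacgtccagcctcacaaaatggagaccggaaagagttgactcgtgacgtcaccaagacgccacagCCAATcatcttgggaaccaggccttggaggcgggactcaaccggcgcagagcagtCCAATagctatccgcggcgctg
Mcm6: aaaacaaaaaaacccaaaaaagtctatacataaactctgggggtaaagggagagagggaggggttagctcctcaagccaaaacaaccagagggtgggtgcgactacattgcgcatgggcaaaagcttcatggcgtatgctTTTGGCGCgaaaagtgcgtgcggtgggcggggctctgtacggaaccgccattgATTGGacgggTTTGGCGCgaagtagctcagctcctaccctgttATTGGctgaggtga
Rrm2: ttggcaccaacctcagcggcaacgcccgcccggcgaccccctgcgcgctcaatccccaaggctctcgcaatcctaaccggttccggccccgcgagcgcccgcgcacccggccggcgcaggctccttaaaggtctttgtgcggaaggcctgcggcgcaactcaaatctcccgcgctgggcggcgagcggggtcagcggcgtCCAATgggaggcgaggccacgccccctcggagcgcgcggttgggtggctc
Ccnb1: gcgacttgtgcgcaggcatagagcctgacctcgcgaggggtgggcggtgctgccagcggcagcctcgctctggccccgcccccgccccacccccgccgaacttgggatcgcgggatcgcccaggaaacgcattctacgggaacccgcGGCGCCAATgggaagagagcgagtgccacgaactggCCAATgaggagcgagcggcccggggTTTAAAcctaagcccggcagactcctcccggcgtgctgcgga
Plk1: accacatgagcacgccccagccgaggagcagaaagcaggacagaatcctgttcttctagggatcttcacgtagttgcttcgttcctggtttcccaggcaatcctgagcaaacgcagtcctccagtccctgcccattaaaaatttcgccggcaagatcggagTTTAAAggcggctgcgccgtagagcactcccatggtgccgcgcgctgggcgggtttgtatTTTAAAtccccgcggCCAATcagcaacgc
Top2a: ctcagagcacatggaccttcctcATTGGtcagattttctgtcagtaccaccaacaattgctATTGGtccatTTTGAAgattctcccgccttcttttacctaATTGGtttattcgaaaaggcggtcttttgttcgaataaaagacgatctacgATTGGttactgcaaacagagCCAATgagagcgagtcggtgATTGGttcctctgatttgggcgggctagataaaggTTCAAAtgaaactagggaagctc

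The E2F-type letters of Mcm5 are the reverse complement of TTTGGCGC, and Mcm6 has TTTGGCGC in 2 places. The printed bases of Rrm2 hold CCAAT alone, since its TTTAAA begins at the start site, and neither Rrm2 nor Pcna or Cdc20, which also recur below, has E2F-type letters in its window. In Ccnb1 the reverse complement of TTGGCGCC overlaps the first CCAAT. Windows were found for 31 of the 40 genes, not for Aurkb, Ccna2, Ccne2, Gins1, Gins2, Kif20a, Mcm4, Pole or Tpx2. For each of the 31 the first listed window was used. The shares of all windows count every listed window, so a gene can enter them more than once. E2F-type letters stood in 10 of 16 replication windows (62.5%), 2 of 15 mitosis windows (13.3%) and 3.77% of 32851 windows of all genes. CHR letters stood in 5 of 16 replication windows (31.2%), 13 of 15 mitosis windows (86.7%) and 27.6% of all windows. CCAAT stood in 11 of 16 (68.8%), 13 of 15 (86.7%) and 37.4%. The 2 mitosis windows with E2F-type letters were those of Ccnb1 and Cdk1, and the 2 without CHR letters were those of Bub1 and Nusap1. A match is a description of the letters only.

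Over the course the 40 genes together stood lower at the end of Dox than on day 4 with every cocktail, and higher again on day 24 in those with Brn4 and c-Myc. The median of the 40 log2(value + 2) values per library summarises this. In BKM_FNV it averaged 10.97 on day 4, 10.06 on day 8, 8.94 on day 12, 8.78 on day 18, 10.52 on day 24 and 10.72 on day 30, against 10.39 in MEFs. K_FNV began lower, at 9.64 on day 4, and stood at 8.88, 8.65, 8.55, 8.84 and 8.40 on the later days. BKM_Sox17 gave 10.53, 9.92, 9.07, 8.41 and 9.62 through day 24 and 9.09 in its single day 30 library. BKM_Sox2 gave 10.56, 9.73, 9.14 and 8.92 through day 18, then 10.59 in its day 24 library and 8.74 in its day 30 library. The pooled SD between libraries of a group was 0.157. The steps from day 12 to day 18 in BKM_FNV and K_FNV were no larger than that, and the BKM_Sox2 day 18 libraries had an SD of 0.395 between them. Fewer dividing cells and less of these RNAs per cell cannot be told apart in such bulk libraries.

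**Figure D1:**
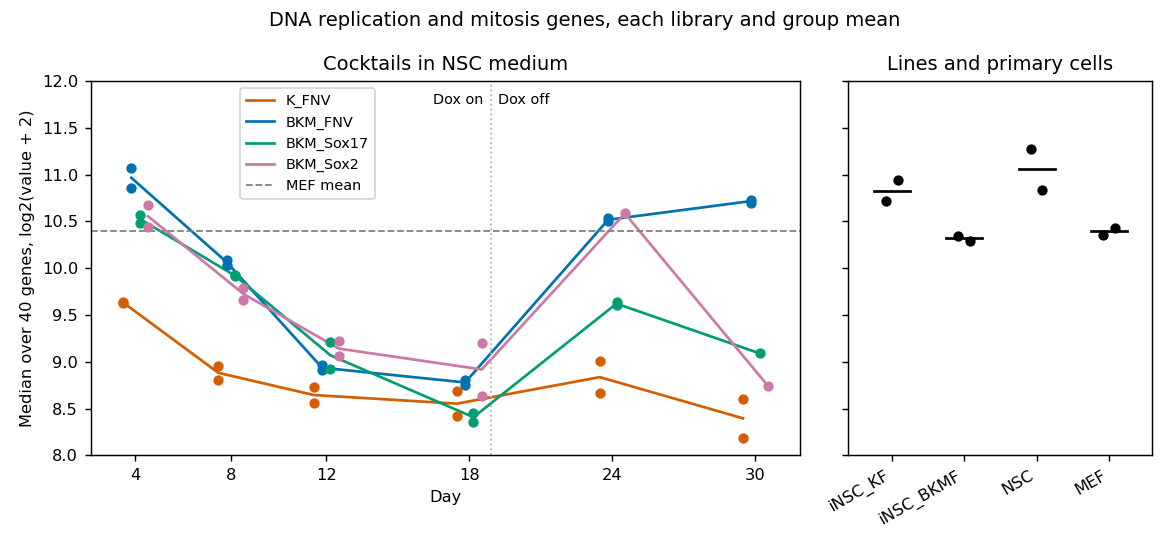
Median of the 40 genes in each library of the NSC-medium table (BKM_Sox2 day 24 replicate 1 left out), as log2(value + 2), by day and cocktail on the left, and for the induced lines, NSC and MEFs on the right. Points are libraries, lines and bars are group means, the dashed line is the MEF mean of 10.39 and the dotted line marks the withdrawal of Dox; BKM_FNV is back at 10.52 on day 24 while K_FNV stands at 8.84.

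The first question was what 4 days of each cocktail on Dox did relative to MEFs. These 4 comparisons share the MEF libraries, and factors, infection, Dox and medium are not separated in them. At most 2 of 40 genes passed the test in the 3 cocktails with Brn4 and c-Myc, and 12 were lower in K_FNV. Mcm5, a helicase subunit, had 2204 and 2295 in BKM_FNV, 1679 and 1837 in BKM_Sox17, 1831 and 2230 in BKM_Sox2 and 734 and 714 in K_FNV, against 1449 and 1367 in MEFs. Pcna had 5239 and 6370 in BKM_FNV, 3415 and 4017 in BKM_Sox17, 5588 and 6618 in BKM_Sox2 and 2609 and 2376 in K_FNV, against 3320 and 3185 in MEFs. For both genes the K_FNV libraries lay below the MEF libraries and the libraries of the other cocktails above them. Cyclin E1 (Ccne1) had 622 and 750 in BKM_FNV, 716 and 675 in BKM_Sox17, 789 and 923 in BKM_Sox2 and 467 and 508 in K_FNV, against 661 and 698 in MEFs. Cyclin B1 (Ccnb1) had 2939 and 3168 in BKM_FNV, 2545 and 2624 in BKM_Sox17, 2436 and 2600 in BKM_Sox2 and 1234 and 1114 in K_FNV, against 2387 and 2143 in MEFs. The K_FNV libraries were again lowest, and those of BKM_FNV overlapped the MEFs for Ccne1 but not for Ccnb1. Top2a, the topoisomerase that untangles sister chromatids, had 7445 and 9215 in BKM_FNV, 6370 and 7282 in BKM_Sox17, 5672 and 7282 in BKM_Sox2 and 3087 and 3558 in K_FNV, against 6160 and 6752 in MEFs. Mki67, the source of the proliferation antigen Ki-67, had 4851 and 4328 in BKM_FNV, 4357 and 4240 in BKM_Sox17, 3961 and 4444 in BKM_Sox2 and 2257 and 2317 in K_FNV, against 2386 and 2920 in MEFs. Mki67 in K_FNV thus lay just under the lower MEF library, while Top2a was clearly below.

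In BKM_FNV 2 of 40 genes were called higher and none lower, where 10.8% of all genes tested were called higher and 9.72% lower. Cdt1, a helicase loader, had 1821 and 2122 in BKM_FNV, against 844 and 782 in MEFs (log2 fold change 1.27 ± 0.31 SE, limma adjusted p = 0.000984). Cenpe, a kinetochore motor, had 2423 and 2784, against 1078 and 1384 in MEFs (log2 fold change 1.09 ± 0.22, limma adjusted p = 0.000168). Leaving out BKM_FNV day 4 replicate 2 or MEF replicate 1 left 1 call, rescaling the libraries gave 6 and keeping the doubtful library gave 0. In BKM_Sox17 1 gene was called, again Cenpe (2452 and 2505), with 10.1% of all genes called higher and 8.67% lower. That count was 0 without MEF replicate 1, 2 without BKM_Sox17 day 4 replicate 2 and 0 with the doubtful library kept. In BKM_Sox2 0 genes were called by limma, with 18 of 40 at an unadjusted p under 0.05 and 9.89% of all genes called higher and 9.43% lower. There the count was 2 without BKM_Sox2 day 4 replicate 1 and 2 after rescaling.

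In K_FNV 12 of 40 were called lower and none higher, where 7.73% of all genes were called lower and 10.2% higher. The median log2 fold change of the 40 was -0.82, against -0.10 over all genes. Cdt1 had 250 and 257 in K_FNV, against 844 and 782 in MEFs, a 3.19-fold lower value (log2 fold change -1.67 ± 0.31, limma adjusted p = 5.72e-05). Cdk1, the mitotic cyclin-dependent kinase, had 851 and 932, against 2308 and 2203 in MEFs (log2 fold change -1.34 ± 0.15, limma adjusted p = 3.21e-08). Neither gene's libraries overlapped between the groups. Aurkb, the kinase of the chromosome passenger complex, had 273 and 264 in K_FNV, against 624 and 666 in MEFs (log2 fold change -1.26 ± 0.25, limma adjusted p = 0.000138). Birc5, or survivin, of the same complex, had 511 and 495, against 1145 and 1220 in MEFs (log2 fold change -1.23 ± 0.19, limma adjusted p = 5.85e-06), and after rescaling was just under the fold limit at -0.99. Ccna2, Ccnb2, Mcm2, Rrm1, Rrm2, Plk1, Tpx2 and Kif20a made up the rest, while the 5 polymerase and clamp genes and the 3 checkpoint genes gave no call. The count was 3 after rescaling, which moves the median of all genes to 0.05, and 4 with the doubtful library kept. The macrophage marker sum was 747 to 795 in K_FNV, against 3614 to 3906 in MEFs, and its part in these results was not tested.

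The next question was what 2 further weeks on Dox did. In BKM_FNV 38 of 40 genes were lower on day 18 than on day 4, with a median log2 fold change of -1.99, against 0.00 over all genes. Called lower were 11.5% of all genes, and 11.4% were called higher. Every one of the 3 nucleotide, 2 cyclin E, 4 cyclin A, B and Cdk1, 3 checkpoint, 3 kinase and 9 chromosome and spindle genes was called, as were 10 of 11 helicase genes and 4 of 5 polymerase and clamp genes. The other two were Gins2 (log2 fold change -0.92 ± 0.15) and Rfc3 (-0.38 ± 0.13), whose adjusted p-values in limma were 9.62e-06 and 0.019 but whose change was under the fold limit.

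Plk1 changed most: BKM_FNV libraries had 1887 and 1952 on day 4, 685 and 449 on day 8, 101 and 137 on day 12 and 132 and 129 on day 18. Day 18 was 14.5-fold below day 4 (log2 fold change -3.86 ± 0.35, limma adjusted p = 3.9e-10). Rrm2, the regulated subunit of ribonucleotide reductase, had 3798 and 3851 on day 4, 1880 and 1683 on day 8, 587 and 513 on day 12 and 293 and 361 on day 18, 11.7-fold below day 4 (limma adjusted p = 7.46e-15). For both genes the day 8 libraries lay below those of day 4, and the libraries of day 12 and day 18 were all below those of day 8. Mcm5 had 2204 and 2295 on day 4, 993 and 1083 on day 8, 302 and 251 on day 12 and 194 and 208 on day 18, 11.1-fold below day 4 (limma adjusted p = 5.68e-11). Pole, the catalytic subunit of the leading-strand polymerase, had 1431 and 1477 on day 4, 981 and 981 on day 8, 404 and 255 on day 12 and 189 and 199 on day 18, 7.43-fold below day 4 (limma adjusted p = 6.9e-11). Pcna had 5239 and 6370 on day 4 and 1462 and 1610 on day 18, Ccne1 622 and 750 on day 4 and 227 and 224 on day 18. Ccnb1 had 2939 and 3168 on day 4 and 584 and 719 on day 18, Top2a 7445 and 9215 on day 4 and 1684 and 1534 on day 18. Mki67 had 4851 and 4328 on day 4 and 1127 and 999 on day 18. In each of these the libraries of the 2 days were far apart.

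With Sox17 in place of eSox17FNV, 38 of 40 genes were called lower on day 18 than on day 4, with 9.66% of all genes called lower and 9.36% higher, and a median log2 fold change of -1.88. Plk1 had 55 and 89 on day 18, against 1277 and 1291 on day 4, a 17.9-fold lower value (log2 fold change -4.16 ± 0.35, limma adjusted p = 1.54e-10). Cdc20, which activates the anaphase-promoting complex, had 312 and 275, against 2363 and 2239 on day 4 (log2 fold change -2.96 ± 0.27, limma adjusted p = 5.86e-10). As in BKM_FNV, Gins2 (-0.91 ± 0.15) and Rfc3 (-0.51 ± 0.13) were the genes not called. With Sox2, 34 of 40 were called lower, with 8.01% of all genes called lower and 8.95% higher, and a median of -1.60. Plk1 had 156 and 92 on day 18, against 1356 and 1490 on day 4 (log2 fold change -3.55 ± 0.35, limma adjusted p = 4.08e-09), and Mki67 had 647 and 573, against 3961 and 4444 on day 4 (log2 fold change -2.78 ± 0.27, limma adjusted p = 3.59e-09). The BKM_Sox2 day 18 libraries differed from each other for several replication genes, as for Mcm5 with 623 and 337 and Cdt1 with 1142 and 538. Cdt1, Gins1, Rfc3, Rfc4, Ccne2 and Bub1 were the genes not called there.

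In K_FNV, which started lower, 24 of 40 were called lower on day 18 than on day 4, with 4.97% of all genes called lower and 5.4% higher, and a median of -1.10. Plk1 had 97 and 37, against 686 and 720 on day 4 (log2 fold change -3.50 ± 0.35, limma adjusted p = 1.49e-08), and Cdc20 had 358 and 187, against 1367 and 1353 on day 4 (log2 fold change -2.38 ± 0.27, limma adjusted p = 1.09e-07). Of the mitosis genes 16 of 19 were called, and of the replication genes 8 of 21. The difference between the courses was tested as an interaction in the same fit. The day 18 to day 4 change was less negative in K_FNV than in BKM_FNV for 13 of 40 genes, 10 of them replication genes, and more negative for none; 7.4% of all genes were called in that direction and 7.31% in the other. The difference was 2.04 ± 0.36 log2 units for Mcm2 (limma adjusted p = 6.82e-05), 1.77 ± 0.25 for Rrm2 (4.32e-06), 1.57 ± 0.34 for Pole (0.000721) and 1.24 ± 0.35 for Aurkb (0.00779). Without BKM_FNV day 18 replicate 2 Aurkb gave 1.00 with a limma adjusted p of 0.0566. Mcm2 had 446 and 608 on day 18 and 916 and 951 on day 4 in K_FNV, against 353 and 469 on day 18 and 3007 and 3007 on day 4 in BKM_FNV. The day 18 libraries of the cocktails thus overlapped for Mcm2, and the day 4 libraries did not. With the doubtful library kept, the counts were 20, 19, 17 and 12 of 40 for the BKM_FNV, BKM_Sox17, BKM_Sox2 and K_FNV courses and 3 for the interaction.

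Other cell types moved over the same days. The fibroblast marker sum in BKM_FNV was 85853 to 97572 on day 4 and 229989 to 235363 on day 18, and the epithelial marker sum was 5522 to 6314 on day 4 and 16064 to 25227 on day 18, with all 10 markers of each list detected. In K_FNV the fibroblast sum was 207154 to 207445 on day 4 and 272387 to 292859 on day 18. The part of these shifts in the results was not tested. Genes of the same processes that are not among the 40 moved the same way. In BKM_FNV 22 of 24 other replication genes were called lower on day 18 and none higher, with Tk1 (thymidine kinase, -4.02), Uhrf1 (a maintenance methylation cofactor, -3.73) and Fen1 (the flap endonuclease, -3.06) showing the largest log2 changes. Of 28 other mitosis genes 26 were called lower and none higher, led by Espl1 (separase, -4.35), Ube2c (a ubiquitin conjugase of the anaphase-promoting complex, -2.90) and Racgap1 (a cytokinesis regulator, -2.77).

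**Figure D2:**
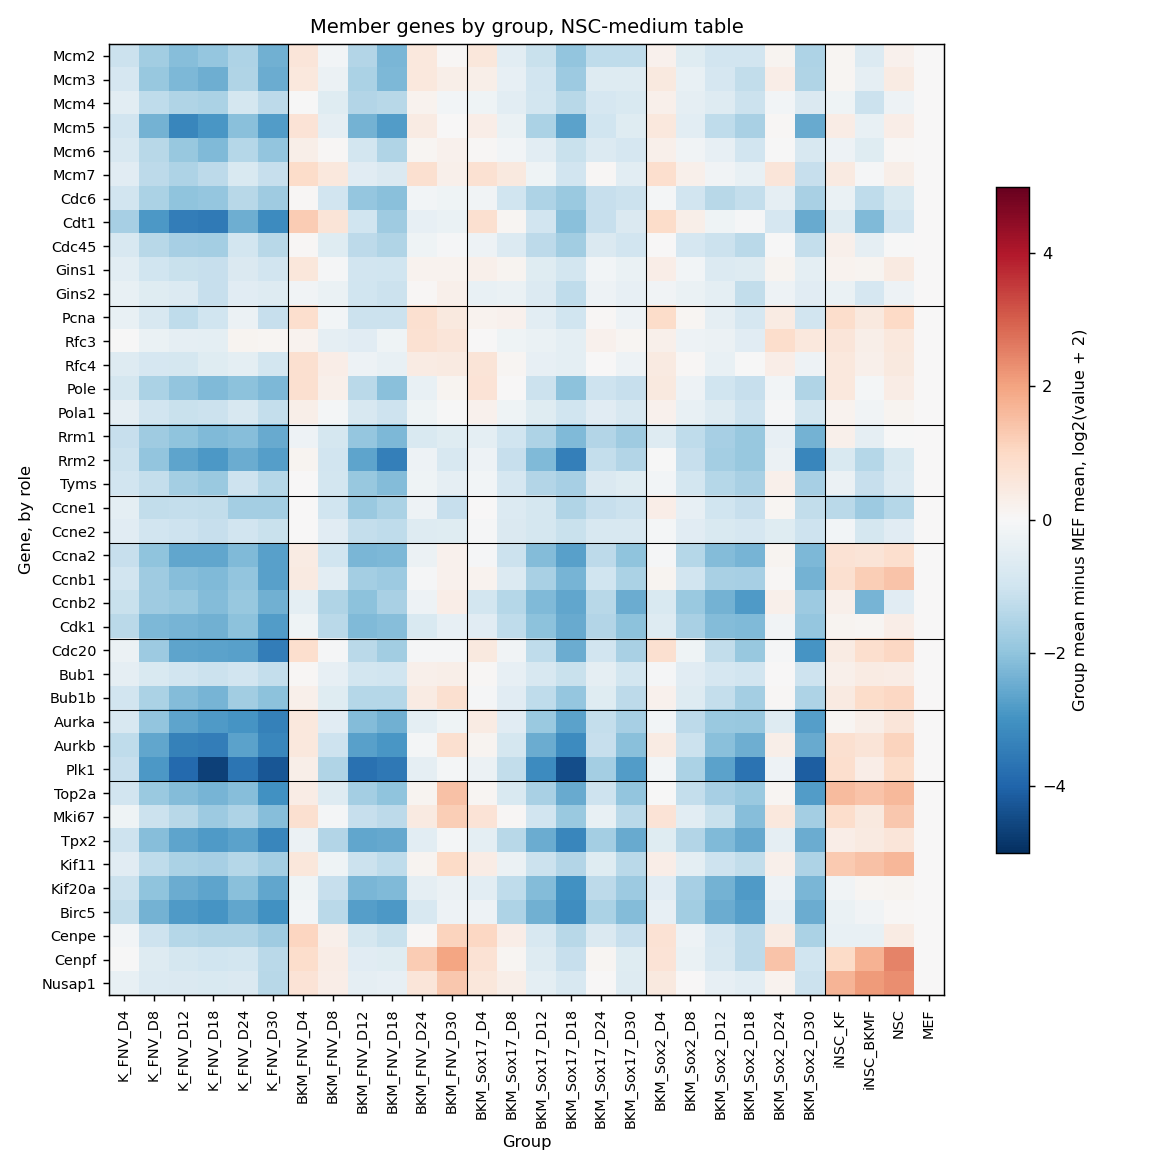
Group mean minus MEF mean, in log2(value + 2) units, of the 40 genes (rows, ordered by role and separated by lines) in the groups of the NSC-medium table (columns, ordered by cocktail and day), without BKM_Sox2 day 24 replicate 1. Blue is below and red above MEFs. From day 4 to day 18 most rows shift towards blue in every cocktail, and Plk1 and Rrm2 are among the darkest rows. On day 4 the median of the 40 genes was below MEFs in K_FNV and above them in the other cocktails.

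**Figure D3:**
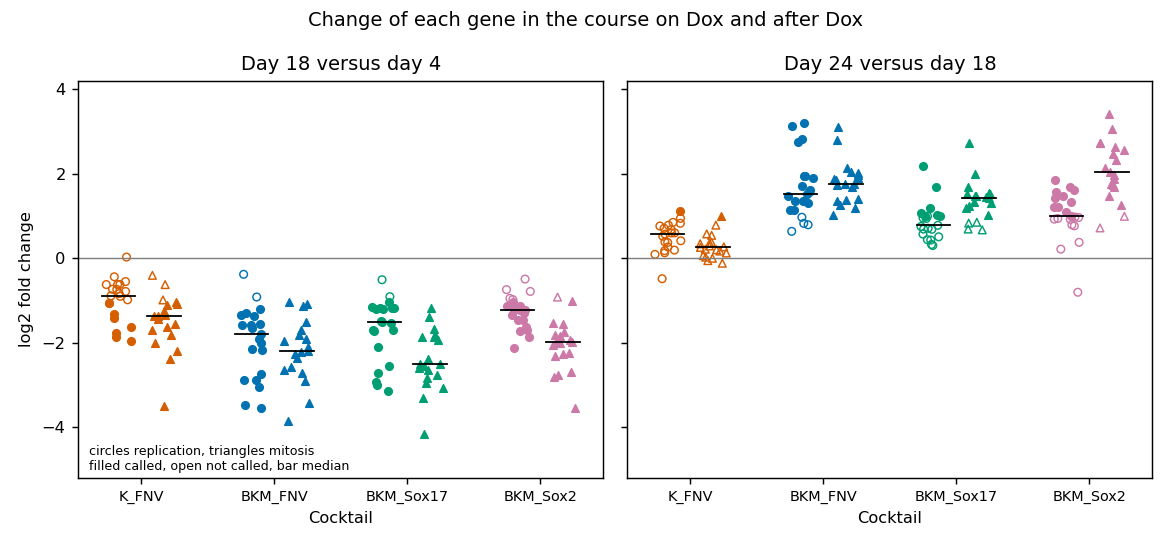
Log2 fold change of each gene between day 18 and day 4 (left) and between day 24 and day 18 (right) in the 4 cocktails; circles are replication genes, triangles mitosis genes, filled symbols passed the test and bars are medians. After Dox the median change was 1.70 in BKM_FNV and 0.37 in K_FNV, the second of which ranges from 0.15 to 0.58 when 1 day 24 library is left out.

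After Dox was withdrawn 22 to 36 of the 40 genes were higher on day 24 than on day 18 in the cocktails with Brn4 and c-Myc, and 2 were in K_FNV. In these comparisons Dox, day and a change in the style of the library names cannot be told apart. In BKM_FNV 36 of 40 genes were higher on day 24 than on day 18, with a median log2 fold change of 1.70, where 8.52% of all genes were called higher and 8.35% lower. Mcm5 had 1880 and 1832 on day 24, against 194 and 208 on day 18, 9.16-fold higher (log2 fold change 3.19 ± 0.29, limma adjusted p = 6.62e-10). Rrm2 had 2988 and 2753, against 293 and 361 on day 18 (log2 fold change 3.13 ± 0.18, limma adjusted p = 8.31e-14). Plk1 had 1154 and 1145, against 132 and 129 on day 18 (log2 fold change 3.12 ± 0.35, limma adjusted p = 3.89e-08). For all 3 genes the day 24 libraries lay above every day 12 and day 18 library. Top2a had 6993 and 7157 on day 24, against 1684 and 1534 on day 18 (log2 fold change 2.14 ± 0.20, limma adjusted p = 1.58e-09), and 16288 and 19766 on day 30. Pcna had 5532 and 5874 on day 24, against 1462 and 1610 on day 18, and Ccne1 had 579 and 572, against 227 and 224. Ccnb1 had 2134 and 2203 on day 24, against 584 and 719 on day 18, and Mki67 had 3456 and 3693, against 1127 and 999. Rfc3, Rfc4, Pola1 and Ccne2 were the 4 genes not called, with log2 fold changes of 0.64 to 0.97 between them. The marker lists moved too: in BKM_FNV the pluripotent sum was 6816 to 6846 on day 24, against 1359 to 2743 on day 18, and the neural stem cell sum 9564 to 9573, against 4100 to 4682. The epithelial sum was 10578 to 10596 on day 24, against 16064 to 25227 on day 18, and the fibroblast sum 204442 to 205162, against 229989 to 235363. The part of these shifts was not tested.

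In BKM_Sox17 22 of 40 genes were called higher on day 24 than on day 18, 15 of 19 mitosis and 7 of 21 replication genes, where 5.25% of all genes were called higher and 6.39% lower. Plk1 had 473 and 482 on day 24, against 55 and 89 on day 18 (log2 fold change 2.73 ± 0.35, limma adjusted p = 7.69e-07), and Rrm2 had 1431 and 1570, against 307 and 345 on day 18 (log2 fold change 2.20 ± 0.18, limma adjusted p = 2.28e-10). In BKM_Sox2 28 of 40 were called higher, where 9.16% of all genes were called higher and 9.3% lower, but day 24 rests on 1 library that is assumed to vary like the other groups. Plk1 had 1303 in that library, against 156 and 92 on day 18 (log2 fold change 3.42 ± 0.43, limma adjusted p = 3.59e-07), and Ccnb2, a cyclin B, had 940, against 122 and 102 on day 18 (log2 fold change 3.05 ± 0.20, limma adjusted p = 5.06e-12). With only the compared groups in the fit that count was 0, and Plk1 had an adjusted p of 0.114 in limma. With the doubtful library kept, the median log2 fold change in BKM_Sox2 was -1.36 and Plk1 gave -0.96. In K_FNV 2 of 40 genes were called higher on day 24 than on day 18, where 3.94% of all genes were called higher and 5.12% lower. These were Cdt1 with 213 and 102, against 71 and 64 (log2 fold change 1.11 ± 0.31, limma adjusted p = 0.00743), and Plk1 with 170 and 88, against 97 and 37 (log2 fold change 1.00 ± 0.35, limma adjusted p = 0.0324). The K_FNV day 24 libraries lay apart for many genes, as for Mcm5 with 509 and 218, against 232 and 146 on day 18. The K_FNV count was 9 without day 24 replicate 2, 4 without day 18 replicate 1, 0 without day 24 replicate 1 or day 18 replicate 2, 1 with a pseudocount of 10 and 0 after rescaling or with the compared groups alone. The median log2 fold change in K_FNV was 0.37, and 0.15 without day 24 replicate 1 or 0.58 without day 24 replicate 2. With the doubtful library kept the counts were 17 in BKM_FNV, 10 in BKM_Sox17 and 0 in K_FNV. The epithelial marker sum in BKM_Sox17 was 4216 to 4285 on day 24, against 11086 to 13936 on day 18. In BKM_Sox2 it was 527 on day 24, against 9828 to 11743 on day 18, and in K_FNV 796 to 1171 on day 24, against 3678 to 3992 on day 18. The part of this shift was not tested.

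The cocktails were then compared day by day. On Dox, averaged over days 4, 8, 12 and 18, no gene of the 40 was called by limma between BKM_FNV and BKM_Sox17, with 12 at an unadjusted p under 0.05, where 2.29% of all genes were called higher and 1.43% lower. Between BKM_FNV and BKM_Sox2 none was called by limma either, with 19 at an unadjusted p under 0.05, where 3.37% of all genes were called higher and 2.81% lower. Log2 differences spanned -0.35 to 0.37 and -0.56 to 0.53. Ccne1 gave the lowest value in both, -0.35 ± 0.09 against BKM_Sox17 and -0.56 ± 0.09 against BKM_Sox2. Between K_FNV and BKM_FNV 8 of 40 genes were lower in K_FNV and none higher, where 6.97% of all genes were called lower and 7.5% higher. These cocktails differ in Brn4 and c-Myc together. Cdt1 differed most: K_FNV had 250 and 257 on day 4, 131 and 91 on day 8, 76 and 70 on day 12 and 71 and 64 on day 18, and BKM_FNV had 1821 and 2122, 1224 and 1291, 522 and 312, and 263 and 210 on the same days (log2 fold change -2.66 ± 0.15, limma adjusted p = 1.89e-14). The Cdt1 libraries did not overlap on any day. Cdc20 (-1.28 ± 0.14, limma adjusted p = 3.41e-09) and Aurkb (-1.13 ± 0.12, limma adjusted p = 7.6e-09) also kept their libraries apart on each day. The other genes called were Mcm5, Mcm6, Mcm7, Pole and Plk1, with log2 fold changes of -1.23 to -1.03. Ccne1 gave 0.08 ± 0.09. Myc itself, whose reads cannot be split between the cell's gene and the vector's, gave -2.69 in the same comparison.

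After Dox, averaged over days 24 and 30, 21 of 40 genes were higher in BKM_FNV than in BKM_Sox17 and none lower, where 9.67% of all genes were called higher and 8.15% lower. They held 18 of 19 mitosis genes and 3 of 21 replication genes, namely Mcm2, Mcm3 and Mcm5, and the median log2 fold change was 1.53 over mitosis and 0.73 over replication genes. Top2a had 6993 and 7157 on day 24 and 16288 and 19766 on day 30 in BKM_FNV, against 3107 and 3125 on day 24 and 1643 on day 30 in BKM_Sox17 (log2 fold change 2.31 ± 0.16, limma adjusted p = 1.73e-12). Aurkb had 611 and 587 on day 24 and 1106 and 1127 on day 30 in BKM_FNV, against 298 and 277 on day 24 and 148 on day 30 in BKM_Sox17 (log2 fold change 1.98 ± 0.20, limma adjusted p = 2.42e-09). Ccnb2 (1.97 ± 0.13, limma adjusted p = 1.15e-12) and Mcm2 (1.58 ± 0.20, limma adjusted p = 1.83e-07) were next by role. For Top2a and Aurkb the gap was wider on day 30, where BKM_Sox17 has 1 library, than on day 24. With the doubtful library kept 11 of 40 were called.

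Between BKM_FNV and BKM_Sox2 18 of 40 genes were higher in BKM_FNV, where 8.72% of all genes were called higher and 6.42% lower, a comparison that rests on 1 BKM_Sox2 library per day. Mcm5 had 1880 and 1832 on day 24 and 1510 and 1377 on day 30 in BKM_FNV, against 1471 on day 24 and 245 on day 30 in BKM_Sox2 (log2 fold change 1.44 ± 0.25, limma adjusted p = 2.86e-05). Nusap1, a spindle protein, had 916 and 978 on day 24 and 1649 and 1534 on day 30 in BKM_FNV, against 703 on day 24 and 289 on day 30 in BKM_Sox2 (log2 fold change 1.44 ± 0.10, limma adjusted p = 6.13e-12). For both the day 24 values of the cocktails were close and the day 30 values far apart. With the doubtful library kept the count was 30.

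Between K_FNV and BKM_FNV 35 of 40 genes were lower in K_FNV after Dox and none higher, with a median log2 fold change of -2.07, where 10.8% of all genes were called lower and 10.9% higher. Plk1 had 170 and 88 on day 24 and 102 and 60 on day 30 in K_FNV, against 1154 and 1145 on day 24 and 1421 and 1490 on day 30 in BKM_FNV, 13.0-fold lower (log2 fold change -3.70 ± 0.25, limma adjusted p = 4.35e-13). Top2a had 1911 and 1122 on day 24 and 932 and 651 on day 30 in K_FNV, against 6993 and 7157 on day 24 and 16288 and 19766 on day 30 in BKM_FNV (log2 fold change -3.40 ± 0.14, limma adjusted p = 2.2e-17). Cdc20 was 8.22-fold lower in K_FNV (limma adjusted p = 1.02e-13) and Mcm5 6.26-fold lower (limma adjusted p = 5.82e-12). The 5 genes not called were Gins2, Rfc3, Pola1, Tyms and Ccne2, with log2 fold changes of -0.89 to -0.40. Of the other replication genes 19 of 24, and of the other mitosis genes 27 of 28, were called lower in K_FNV and none higher. The neural stem cell marker sum was highest in BKM_FNV on day 30, at 16242 to 17066. It was 2308 to 3145 in K_FNV, 1622 in BKM_Sox2 and 768 in BKM_Sox17. Among these 3 cocktails the day 30 median of the 40 genes ran the other way. It was 8.40 in K_FNV, 8.74 in BKM_Sox2 and 9.09 in BKM_Sox17, the last 2 with 1 library each. Olig2 had 157 and 123 in BKM_FNV on day 30 and was listed at 0 in the 3 other cocktails. Nr2e1 was at 0 or 1 in every one of these libraries, BKM_FNV included. Sox2 is one of the markers, and its reads in BKM_Sox2 may come from the vector. On day 24 the pluripotent sum was 24 to 32 in K_FNV, against 6816 to 6846 in BKM_FNV, and the epithelial sum 796 to 1171, against 10578 to 10596. The part of these marker differences in the results was not tested.

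The induced lines and primary cells were compared next. NSC had 9 of 40 genes higher than MEFs and 1 lower, where 17.7% of all genes were called higher and 16.7% lower. All 9 were mitosis genes and the lower one was Ccne1. Cenpf, a kinetochore protein, had 5961 and 2589 in NSC, against 661 and 750 in MEFs (log2 fold change 2.48 ± 0.23, limma adjusted p = 1.38e-10). Ccnb1 had 5672 and 6509 in NSC, against 2387 and 2143 in MEFs (log2 fold change 1.42 ± 0.16, limma adjusted p = 1.37e-08). The NSC libraries lay above the MEF libraries for both, but differed from each other for Cenpf. Top2a had 19766 and 19766 in NSC, against 6160 and 6752 in MEFs, and Mki67 had 11078 and 4017, against 2386 and 2920. Ccne1 had 289 and 223 in NSC, against 661 and 698 in MEFs (log2 fold change -1.41 ± 0.18, limma adjusted p = 7.66e-08). Mcm5 had 2027 and 1534 in NSC, against 1449 and 1367 in MEFs, and Pcna had 6618 and 6370, against 3320 and 3185. Neither Mcm5 nor Pcna was called. Aurkb (1.12 ± 0.25, limma adjusted p = 0.000286) and the checkpoint kinase-like Bub1b (1.03 ± 0.17, limma adjusted p = 8.55e-06) stood close to the fold limit. After rescaling they were under it, at 0.97 and 0.87, and Bub1b was at 0.96 without MEF replicate 1. With the doubtful library kept 5 genes were called.

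Few of the 40 genes were called between the induced lines and NSC, although nearly all had values in iNSC_BKMF below those in NSC. In iNSC_BKMF 2 of 40 were called lower than in NSC, where 1% of all genes were called lower and 1.02% higher, and the median log2 fold change was -0.42, or -0.23 without NSC replicate 1. Both iNSC_BKMF libraries lay below both NSC libraries for 38 of 40 genes, all but Bub1 and Kif20a, a pattern shown by 21.3% of all genes, and above them for 0, against 19.5% of all genes. Ccnb2 had 162 and 151 in iNSC_BKMF, against 495 and 576 in NSC (log2 fold change -1.76 ± 0.17, limma adjusted p = 4.2e-08), while its relative Ccnb1 had 5163 and 5587, against 5672 and 6509 in NSC. Ccnb2 therefore stood apart from Ccnb1 in this line. Cdt1 had 174 and 171 in iNSC_BKMF, against 591 and 300 in NSC (log2 fold change -1.28 ± 0.31, limma adjusted p = 0.0119). The count was 7 without NSC replicate 2, 1 without either iNSC_BKMF library or NSC replicate 1, 1 with the compared groups alone and 1 with the doubtful library kept. In iNSC_KF 1 of 40 was called lower, where 4.09% of all genes were called lower and 4.79% higher. This was Cenpf with 1672 and 1125 in iNSC_KF, against 5961 and 2589 in NSC (log2 fold change -1.52 ± 0.23, limma adjusted p = 7.63e-06). Both iNSC_KF libraries lay below both NSC libraries for 14 of 40 genes, against 26.2% of all genes, and above them for 5, against 20% of all genes. The count called was 3 without NSC replicate 2, 2 without iNSC_KF replicate 2, 0 without NSC replicate 1 and 0 with the compared groups alone.

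**Figure D4:**
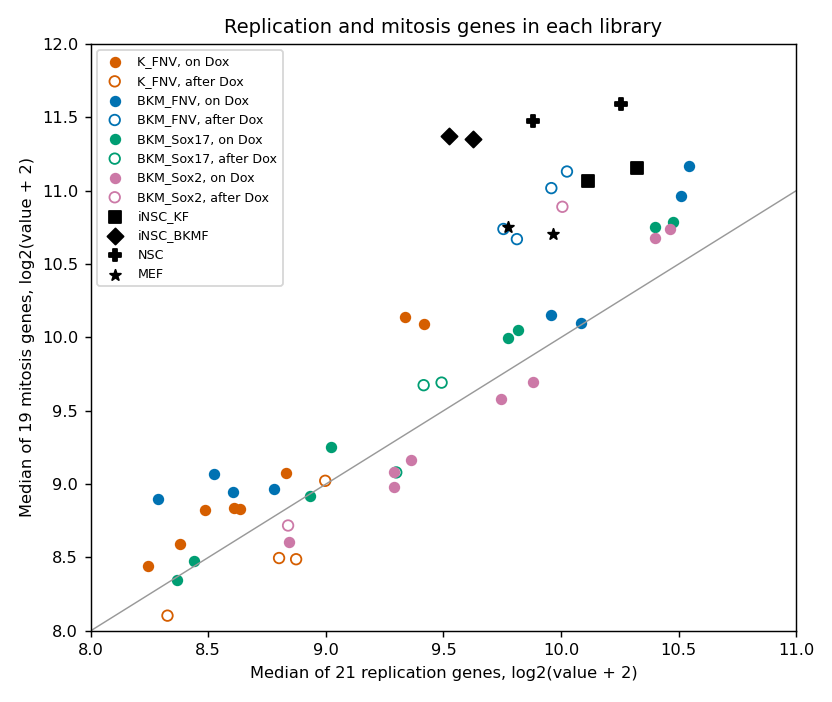
Median of the 19 mitosis genes against the median of the 21 replication genes in each library of the NSC-medium table (BKM_Sox2 day 24 replicate 1 left out), both as log2(value + 2); filled circles are on Dox, open circles after Dox, black symbols are lines and primary cells and the line marks equal medians. The group mean difference is 1.79 in iNSC_BKMF and 1.47 in NSC, against 0.85 in MEFs.

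The balance of mitosis to replication genes is described by group means, without a test and without a spread between libraries. The median of the mitosis genes minus that of the replication genes, in log2 units, averaged 1.79 in iNSC_BKMF, 0.89 in iNSC_KF and 1.47 in NSC, against 0.85 in MEFs. On day 18 it was 0.27 in K_FNV, 0.58 in BKM_FNV, 0.01 in BKM_Sox17 and -0.22 in BKM_Sox2. On day 30 it was -0.26 in K_FNV and 1.08 in BKM_FNV. It was -0.22 in BKM_Sox17 and -0.12 in BKM_Sox2 on that day, with 1 library each. Levels of different genes are not on a scale per length, so the sign of such a value is not read, and only its differences between groups are.

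In the second experiment the starting question was the response to Klf4, c-Myc and eSox17FNV in N2B27 medium. On day 4, 15 of 40 genes were lower than in MEFs and none higher, where 8.54% of all genes were called lower and 9.88% higher, and the median log2 fold change was -0.75. Genotype, factors, infection, Dox and medium are not separated here. Cdt1 had 143 and 185 in N2B27 day 4 cells, against 813 and 757 in MEFs (log2 fold change -2.26 ± 0.31, limma adjusted p = 4.84e-05). Aurkb had 176 and 199, against 608 and 649 in MEFs (log2 fold change -1.74 ± 0.30, limma adjusted p = 0.000299). Top2a had 1908 and 2474, against 6056 and 6727 in MEFs (log2 fold change -1.55 ± 0.20, limma adjusted p = 2.53e-05). For all 3 the libraries lay well below MEFs. Mcm5 had 618 and 803, against 1356 and 1282 in MEFs, and Pcna had 2766 and 3713, against 3093 and 2978. Ccne1 had 576 and 606, against 644 and 680 in MEFs, Ccnb1 had 877 and 1300, against 2234 and 1996, and Mki67 had 1456 and 1565, against 2234 and 2738. Of these only Pcna overlapped between the groups. Between day 8 and day 4 limma called 0 of 40, with 7 at an unadjusted p under 0.05, where 3% of all genes were called higher and 1.71% lower. That count was 1 without N2B27 day 4 replicate 2, without N2B27 day 8 replicate 1 or after rescaling. The macrophage marker sum was 413 to 466 on day 4, against 3568 to 3850 in MEFs, and its part in the results was not tested.

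After the split both media had 23 of 40 genes higher on day 12 than N2B27 had on day 8 and none lower. In LIF/2i 6.8% of all genes were called higher and 7.64% lower, and in NSC medium 7.43% higher and 8.72% lower. These comparisons share the day 8 libraries. Tyms, thymidylate synthase, had 1820 and 1695 in NSC medium on day 12, against 484 and 383 in N2B27 on day 8 (log2 fold change 2.02 ± 0.20, limma adjusted p = 2.18e-06). Birc5 had 1885 and 1679 in NSC medium on day 12, against 562 and 510 in N2B27 on day 8 (log2 fold change 1.73 ± 0.15, limma adjusted p = 7.55e-07). Ccne1 had 1305 and 1255 in NSC medium on day 12, against 492 and 381 in N2B27 on day 8 (log2 fold change 1.56 ± 0.20, limma adjusted p = 2.47e-05). Each had libraries that did not overlap with day 8. Cdt1 had 1595 and 1667 in LIF/2i on day 12, against 279 and 258 in N2B27 on day 8 (log2 fold change 2.59 ± 0.31, limma adjusted p = 2.04e-05). Cdt1 in NSC medium had 903 and 813 on day 12 (log2 fold change 1.67 ± 0.31, limma adjusted p = 0.000677). Birc5 in LIF/2i had 2179 and 1496 on day 12 (log2 fold change 1.75 ± 0.15, limma adjusted p = 8.57e-07). Cdt1 was thus higher in LIF/2i than in NSC medium on that day, and Birc5 overlapped between them. Over the same step the fibroblast marker sum was 186760 to 220464 in LIF/2i and 65881 to 71137 in NSC medium on day 12, against 313355 to 325780 in N2B27 on day 8. The pluripotent sum was 25130 to 27270 in LIF/2i and 10858 to 10939 in NSC medium, against 2580 to 5700 in N2B27, with all 10 markers of each list detected. The part of these shifts in the results was not tested.

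**Figure D5:**
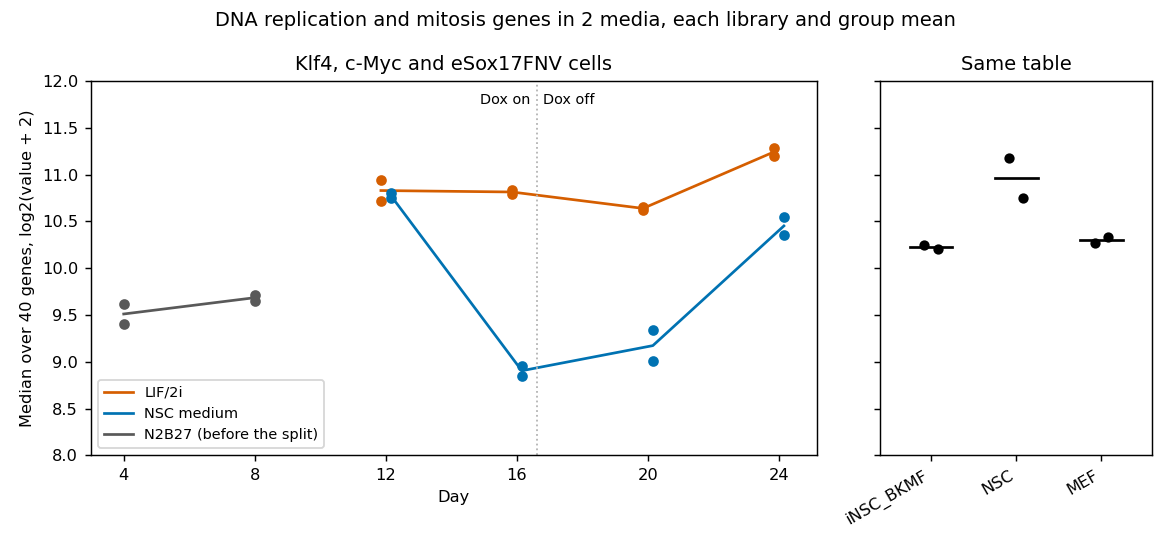
Median of the 40 genes in each library of the parallel table, as log2(value + 2), by day for LIF/2i, NSC medium and the N2B27 phase before the split, and for iNSC_BKMF, NSC and MEFs on the right. Points are libraries, lines and bars group means and the dotted line marks the withdrawal of Dox; on day 16 LIF/2i stands at 10.81 and NSC medium at 8.90.

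The media then separated. The median of the 40 genes in LIF/2i averaged 10.83 on day 12, 10.81 on day 16, 10.64 on day 20 and 11.24 on day 24. In NSC medium it averaged 10.78 on day 12, 8.90 on day 16, 9.17 on day 20 and 10.45 on day 24, with a pooled SD between libraries of 0.134. In NSC medium all 40 genes had both day 16 libraries below both day 12 libraries, a pattern shown by 28.1% of all genes, while Dox was still present. On day 24 in NSC medium 37 of 40 had both libraries above both of day 20, against 25.9% of all genes. LIF/2i libraries were both above both NSC medium libraries for 16 of 40 genes on day 12 (28.9% of all genes), 38 on day 16 (29.2%), 40 on day 20 (31.4%) and 34 on day 24 (33.3%). Day 12 is therefore nearest to the share of all genes, and the later days are further above it.

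Mcm2 had 2874 and 3678 on day 12, 2857 and 3441 on day 16, 3499 and 3566 on day 20 and 8090 and 6728 on day 24 in LIF/2i, and 1746 and 1826, 215 and 368, 489 and 834, and 2098 and 2064 in NSC medium on the same days. Mcm5 had 2257 and 2302 on day 12, 2234 and 2112 on day 16, 2416 and 2487 on day 20 and 3565 and 3616 on day 24 in LIF/2i, and 1656 and 1754, 183 and 258, 375 and 648, and 1608 and 1587 in NSC medium. For both genes every LIF/2i library lay above every NSC medium library, whose lowest values were on days 16 and 20. Pcna had 9605 and 11248 in LIF/2i on day 16, against 2685 and 3202 in NSC medium. Top2a had 6531 and 5969 in LIF/2i on day 16, against 1352 and 1559 in NSC medium, but on day 24 it had 15437 and 13758, against 13758 and 9066. Mki67 had 1771 and 1820 in LIF/2i on day 16, against 514 and 583 in NSC medium, whereas on day 24 it had 2942 and 2685, against 6056 and 3524. On day 24 one NSC medium library thus equalled the lower LIF/2i library for Top2a and the other lay below it, both NSC medium libraries lay above LIF/2i for Mki67, and both stayed below it for Mcm2 and Mcm5. Ccne1 had 1030 and 826 in LIF/2i on day 24, against 347 and 450 in NSC medium, and Ccnb1 had 6727 and 6531, against 2250 and 2655.

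Averaged over days 12 and 16, 17 of 40 genes were higher in LIF/2i than in NSC medium and none lower, where 8.06% of all genes were called higher and 7.45% lower. Mcm2 led with a log2 fold change of 2.17 ± 0.17 (limma adjusted p = 1.56e-07), followed by role by Rrm2 (1.49 ± 0.12, limma adjusted p = 1.68e-07), Pole (1.40 ± 0.13, limma adjusted p = 8.92e-07) and Aurka (1.30 ± 0.14, limma adjusted p = 3.89e-06). This average joins a day on which the media were close and a day on which they were far apart. Averaged over days 20 and 24, 25 of 40 were higher in LIF/2i and none lower, where 12.2% of all genes were called higher and 12.3% lower. Cdt1 (2.21 ± 0.22, limma adjusted p = 5.68e-07), Ccnb1 (1.89 ± 0.15, limma adjusted p = 5.61e-08), Aurka (1.80 ± 0.14, limma adjusted p = 4.96e-08) and Pole (1.60 ± 0.13, limma adjusted p = 7.79e-08) led by role. Of the other replication genes 16 of 24, and of the other mitosis genes 19 of 28, were called higher in LIF/2i after Dox and none lower. The pluripotent marker sum was 32161 to 40754 on day 16 and 91016 to 91060 on day 24 in LIF/2i, against 3078 to 3673 and 3483 to 8892 in NSC medium. The fibroblast sum was higher in LIF/2i on day 12, at 186760 to 220464 in LIF/2i, against 65881 to 71137 in NSC medium, and overlapped on day 16, at 123130 to 197087 in LIF/2i, against 116398 to 144472. After Dox it was lower in LIF/2i, at 254977 to 301535 on day 20 and 188553 to 189287 on day 24, against 321380 to 336561 and 302993 to 315952 in NSC medium. The part of these differences in the results was not tested.

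The effect of Dox withdrawal, read as days 20 and 24 against days 12 and 16, cannot be told apart from day. In NSC medium each average also joins unlike days. The median of the 40 genes there was 10.78 on day 12 and 8.90 on day 16, then 9.17 on day 20 and 10.45 on day 24. A small count for NSC medium, or for the difference between the media, therefore does not show that these genes stayed level. In LIF/2i limma called 0 of 40, with 20 at an unadjusted p under 0.05, where 6.4% of all genes were called higher and 5.16% lower. In NSC medium 1 of 40 was called higher, where 11.2% of all genes were called higher and 9.33% lower. That was Cenpf with 431 and 644 on day 20 and 2874 and 2168 on day 24, against 901 and 824 on day 12 and 272 and 288 on day 16 (log2 fold change 1.22 ± 0.20, limma adjusted p = 9.25e-05). The test of the difference between the media in this change gave 0 of 40 in limma, with 18 at an unadjusted p under 0.05, where 6.51% of all genes were called higher and 7.36% lower. The LIF/2i count was 1 without LIF/2i day 12 replicate 2 and 1 after rescaling. The NSC medium count was 3 without NSC medium day 20 replicate 2, 2 without day 20 replicate 1, 2 without day 24 replicate 2 and 2 after rescaling. The count for the difference was 1 without LIF/2i day 12 replicate 1.

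The 40 genes moved together to different degrees. Pearson r was taken between genes over the 28 group means of the NSC-medium table, which come from the same libraries for every gene. Its median was 0.86 over all pairs, 0.947 between mitosis genes, 0.856 between replication genes and 0.829 between the sets. No r over pairs of all genes is given for reference. Aurkb was closest to the median of the other members (r = 0.982) and Ccne1 least close (0.566), followed by Rfc3 (0.629), Cdt1 (0.659) and Gins2 (0.758). Plk1 had the widest span of group means, 5.56 log2 units, and Ccne2 the narrowest, 1.30. The genes outside the 40 whose group means were most like their median were Melk (0.983), Smc2 (0.982), Sgo1 (0.980), Ncapg (0.978), Mms22l (0.978), Espl1 (0.975), Mad2l1 (0.975), Incenp (0.974), Cdca5 (0.973) and Lig1 (0.972). NSC had the highest mean for 17 of the 40 genes and BKM_FNV day 4 for 12, while K_FNV day 30 had the lowest for 15, K_FNV day 18 for 8 and BKM_Sox17 day 18 for 7. In the parallel table LIF/2i day 24 had the highest mean for 16 and NSC for 10, and NSC medium day 16 had the lowest for 25 and NSC medium day 20 for 10. Shares over all genes are not given for these counts of extremes, which describe the 40 genes only.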

How the data were processed

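The deposited values are whole-number scores: tag counts per gene that the authors normalized and rounded, in 1 table per experiment. Per the submitters' processing notes, Bowtie2 2.0, RSEM and mm10 were used; the order of the steps and the normalization method are not given in the sources used here. Within a table the sorted values are nearly the same in every column, so changes are relative to the other genes. The deposited tables hold 54 and 26 columns that matched the labels and 4 that did not, which were not used. NSC columns matched the labels by group only. With the depth unknown, no counting interval is given.

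From these values log2(value + 2) was computed, and genes that reached 10 in no fewer than 2 libraries were tested (20760 and 20468 genes). limma 3.58.1 in R 4.3.3 was fitted with a trend, 1 mean per group and all groups of a table together, and 31 comparisons were made over 53 and 26 libraries. BKM_Sox2 day 24 replicate 1 was left out of that fit. Groups with 1 library are assumed to vary like the others. p-values were adjusted by the Benjamini-Hochberg method over all genes tested in a comparison. On simulated data for BKM_FNV day 18 versus day 4, the fit called 87% of genes changed by 1.5 log2 units and 91% of those changed by 2.5. For LIF/2i versus NSC medium on Dox it called 89% and 94%. Unchanged genes gave 1 false call in the first comparison and 5 in the second. The changed genes were drawn from those without low values, and noise was drawn for each gene separately from the spread of the fit. These rates therefore do not cover low genes or genes that vary together.

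The 40 genes, the other lists and the tests were chosen with earlier results of these data known. Genes named in a comparison are up to 4 called genes per direction with the largest change and no overlap between libraries, at most 1 per role. Mcm5, Pcna, Ccne1, Ccnb1, Top2a and Mki67 are given in each section's opening comparison. For other lists up to 3 called genes are named, and the 10 genes most like the median are given without a test. Values of these and other genes beyond that rule were chosen after they were seen. Replicate numbers did not pair libraries: the deviations of same-numbered libraries correlated at -0.076 to 0.092 and -0.05 to 0.088 over pairs of groups. Alternatives were a pseudocount of 10, no filter, rescaling by the median ratio, a replicate block, the compared groups alone, the doubtful library kept and each library left out.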

Additional observations from a re-analysis of the deposited data

Results flagged for a closer look

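The change between day 18 and day 4 differed between K_FNV and BKM_FNV by the interaction test in limma for 13 of the 40 genes. All 13 were less negative in K_FNV, where 7.4% of all genes were called in that direction and 7.31% in the other. The count was 10 to 18 when 1 library was left out, and lower with the doubtful library kept. The difference, K_FNV change minus BKM_FNV change on the log2 scale, was 2.04 for Mcm2, 1.77 for Rrm2, 1.57 for Pole and 1.24 for Aurkb. In both cocktails these 4 genes had lower means on day 18 than on day 4, and K_FNV began lower on day 4. The Aurkb difference was not past the threshold without BKM_FNV day 18 replicate 2.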

How the results depend on the processing

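Counts of the 40 genes called stayed within 1.5 times the reported count in all 31 comparisons without the filter and in 28 of 28 with the replicate block, which changed no call of a named gene; the comparisons with NSC could not be fitted with it. With a pseudocount of 10 only K_FNV day 24 versus day 18 moved, to 1. Rescaling gave 6 for BKM_FNV, 2 for BKM_Sox2 and 3 for K_FNV at day 4 versus MEF, 0 for K_FNV day 24 versus day 18, 1 for N2B27 day 8 versus day 4, 1 for LIF/2i and 2 for NSC medium after versus on Dox. With the compared groups alone, counts were 0 for BKM_Sox2 and 0 for K_FNV day 24 versus day 18, 1 for iNSC_BKMF and 0 for iNSC_KF versus NSC; fewer samples then estimate the spread. Keeping BKM_Sox2 day 24 replicate 1 gave, versus MEF on day 4, 0 for BKM_FNV, 0 for BKM_Sox17 and 4 for K_FNV. For day 18 versus day 4 it gave 20 for BKM_FNV, 19 for BKM_Sox17, 17 for BKM_Sox2, 12 for K_FNV and 3 for the difference between the K_FNV and BKM_FNV courses. For day 24 versus day 18 it gave 17 for BKM_FNV, 10 for BKM_Sox17 and 0 for K_FNV. After Dox it gave 11 for BKM_FNV versus BKM_Sox17 and 30 versus BKM_Sox2, and it gave 5 for NSC versus MEF and 1 for iNSC_BKMF versus NSC. With it kept, the BKM_Sox2 day 24 versus day 18 median turned to -1.36 and Plk1 to -0.96 (limma adjusted p = 0.49), and 24 other named genes kept their direction but missed the threshold. The cause of these shifts was not tested, beyond the smaller number of samples named above. The median change of the 40 genes moved by more than the spread between libraries in 6 comparisons after rescaling, to 0.51 for BKM_FNV, 0.24 for BKM_Sox17 and -0.58 for K_FNV at day 4 versus MEF, 1.25 for BKM_Sox2 day 24 versus day 18, 1.10 for BKM_FNV versus BKM_Sox2 after Dox and 0.16 for N2B27 day 8 versus day 4. Without 1 library it moved to 0.15 or 0.58 for K_FNV day 24 versus day 18, -1.30 for K_FNV day 18 versus day 4, -1.87 or -1.32 for BKM_Sox2 day 18 versus day 4, 1.66 or 1.22 for BKM_Sox2 day 24 versus day 18, 0.19 or 0.53 for NSC versus MEF and -0.23 for iNSC_BKMF versus NSC, all with the sign unchanged. Leaving out 1 library at a time gave 1 to 2 for BKM_FNV, 0 to 2 for BKM_Sox17 and 0 to 2 for BKM_Sox2 at day 4 versus MEF, 0 to 9 for K_FNV day 24 versus day 18, 1 to 7 for iNSC_BKMF and 0 to 3 for iNSC_KF versus NSC, 0 to 1 for N2B27 day 8 versus day 4, 0 to 1 for LIF/2i and 1 to 3 for NSC medium after versus on Dox, and 0 to 1 for the difference between those media. No value can be had without the only library of BKM_Sox17 day 30, BKM_Sox2 day 24 or BKM_Sox2 day 30. The unknown depth, and 1 or 2 libraries per group, limit the precision of every value.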

Other observations

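Regulators of the cycle and genes of quiescence and arrest moved over the same days. Of 16 regulators, 10 were lower in BKM_FNV on day 18 than on day 4 and none higher, where 11.5% of all genes were called lower and 11.4% higher. They were led by Mybl2 (B-Myb, of the MuvB complexes) at -4.68 ± 0.37 (limma adjusted p = 3.34e-11), E2f2 (an E2F factor) at -3.37 ± 0.33 (1.08e-09) and Foxm1 (a G2 and mitosis factor) at -2.99 ± 0.19 (4.87e-13). Of 10 quiescence and arrest genes, 7 were higher and 1, Trp53, was lower. Cdkn1b (p27, a CDK inhibitor) led at 2.25 ± 0.17 (1.19e-11), followed by the CDK inhibitors Cdkn2b at 2.04 ± 0.14 (1.1e-12) and Cdkn1c at 2.01 ± 0.41 (0.000134).

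On day 24 against day 18 in BKM_FNV, 9 regulators were higher and 1 lower, where 8.52% of all genes were called higher and 8.35% lower. Mycn (N-Myc) gave 4.52 ± 0.51 (limma adjusted p = 4.25e-08), Mybl2 3.29 ± 0.37 (4.62e-08), Foxm1 2.81 ± 0.19 (3.18e-12), and Myc, whose reads may include the vector's, was the lower one at -3.08 ± 0.19 (4.01e-13). Of the arrest genes 3 were lower and none higher, with Cdkn1b at -1.44 ± 0.17 (7.94e-08). Between K_FNV and BKM_FNV after Dox, 8 of 16 regulators were lower in K_FNV, and 4 arrest genes were higher and 2 lower, where 10.8% of all genes were called lower and 10.9% higher. Cdkn2b gave 2.62 ± 0.10 (limma adjusted p = 1.25e-18), Cdkn2a (p16 and p19Arf) 2.27 ± 0.10 (3.55e-17) and Cdkn1c -3.32 ± 0.29 (7.53e-11). NSC had 5 arrest genes higher than MEFs and 3 lower, where 17.7% of all genes were called higher and 16.7% lower, with Cdkn2c (p18) at 3.51 ± 0.22 (limma adjusted p = 3.93e-14), Cdkn1c at -4.38 ± 0.41 (2.01e-10) and Cdkn2b at -3.70 ± 0.14 (1.99e-19).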
